A study of Mus musculus with 20 samples.

Results

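The transcripts described here were those of the collagen and laminin chain genes, chosen by symbol: every gene named Col, a number, a and a number, or Lam, a letter from a to c and a number. The files held 54 such genes, 43 for collagen and 11 for laminin chains, among 23284 genes. Of these, 19 (12 collagen and 7 laminin) had a mean TPM (a transcript level corrected for length and library size) of at least 1 over the 10 inputs, and single values are given for all but 1 of them. The gene just inside this limit was Col6a2, at 1.01 TPM, and the gene just outside it was Col5a2, at 0.983 TPM.

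The libraries were RIP-Seq libraries from mouse embryonic stem cells (ESCs), in which RNA held by a Flag-tagged Tet protein was pulled down with an anti-Flag antibody and sequenced. The 20 libraries formed 10 pairs of an immunoprecipitate (IP) and its input. They came from wild-type ESCs with a Flag, HA and Twin-Strep tag knocked in at the C-terminal end of endogenous Tet1 (2 pairs), of endogenous Tet2 (4 pairs), or of Tet2 without its RNA-binding domain, called Tet2dRBD (4 pairs). All lines were grown in serum and leukemia inhibitory factor, and they were derived from picked clones, with the number of clones behind each line not given in the sources used here. The IP was made from cytoplasmic extract, the input was total RNA, and IgG control libraries were not analysed here.

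Collagens are assembled from α-chains whose central part is a repeat of glycine-X-Y units, and laminins are heterotrimers of an α, a β and a γ chain. Type IV collagen (Col4a1 and Col4a2) and laminin-111 (Lama1, Lamb1 and Lamc1) are the first networks laid down in the basement membrane of the early embryo, and primitive and parietal endoderm cells are known for making much of both. The chains carry signal peptides and are translated at the endoplasmic reticulum (ER), where they are folded, hydroxylated and loaded into large carriers.

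The coding sequences showed how the families differ, and they are printed for the chains on which the results turn. The stretches below are from the GENCODE vM1 annotation of mm9, the genome build of the files, written as DNA on the coding strand. The first pair is the start of the longest unbroken glycine-X-Y run in each type IV collagen chain, with the glycine codons in capitals. The others are 60 coding bases around the first UC hexamer (TCTCTC or CTCTCT, in capitals with any overlapping match, as in Lama1) after coding base 200 of each laminin-111 chain. The repeat is shown because the study describes a UC-rich motif at hydroxymethylated sites. The study found those sites mostly in introns, whereas this hexamer was chosen here and searched in coding sequence only. The printed stretches are thus not the study's sites.
Col4a1, coding bases 127 to 216: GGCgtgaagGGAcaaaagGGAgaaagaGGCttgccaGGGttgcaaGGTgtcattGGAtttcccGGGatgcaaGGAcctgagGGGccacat
Col4a2, coding bases 2329 to 2418: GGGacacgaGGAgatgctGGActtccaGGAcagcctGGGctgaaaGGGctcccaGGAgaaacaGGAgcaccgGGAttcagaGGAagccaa
Lama1, coding bases 2057 to 2116: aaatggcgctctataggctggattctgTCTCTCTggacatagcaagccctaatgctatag
Lamb1, coding bases 3668 to 3727: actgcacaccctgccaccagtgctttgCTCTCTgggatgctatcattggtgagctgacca
Lamc1, coding bases 1180 to 1239: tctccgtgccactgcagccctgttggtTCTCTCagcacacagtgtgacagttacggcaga

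Glycine codons made up a median of 26.6% of the coding sequence in the 12 collagen genes, 8.17% in the 7 laminin genes and 6.34% in the 11243 expressed genes with a coding sequence in this annotation. The median GC content was 61.4% in collagen, 55.1% in laminin and 53.7% in all expressed genes. A UC hexamer was found on the sense strand, with overlapping matches counted, in 6 of 12 collagen and 7 of 7 laminin coding sequences. It was found in 45.0% of all expressed coding sequences, which were shorter (median of 1317 coding bases, against 4686 in collagen and 5400 in laminin). After coding base 200, Lama1 held 10 such hexamers, Lamc1 held 4 and Lamb1 held 3. On mm9, Lamb1 lies at chr12:31950099-32014509 on the plus strand, Lama1 at chr17:68046605-68171985 on the plus strand and Lamc1 at chr1:155066052-155179916 on the minus strand. Col4a1 (chr8:11198423-11312826, minus strand) and Col4a2 (chr8:11312805-11449287, plus strand) are head to head and overlap by 22 bases at their starts.

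Library totals ran from 21078995 to 37576638 expected counts. The ESC markers varied widely in level, with Pou5f1 from 2000.3 to 3191 TPM over the inputs. Tfcp2l1 (34.7 to 123 TPM), Zfp42 (15.3 to 75.8 TPM) and Klf4 (17.4 to 45.0 TPM) were far lower. Of the endoderm list Srgn, the most abundant, ran from 37.6 to 149 TPM. Dab2 ran from 3.61 to 50.2 TPM and Gata4 from 1.99 to 43.7 TPM, and Afp reached at most 0.1 TPM. The lower ESC markers thus overlapped the higher endoderm markers. Of the fibroblast list, Dcn, Lum, Postn, Fap and Tcf21 stayed at or below 0.27 TPM, and S100a4 was the highest, at 27.8 to 133 TPM. Replicates 1 and 2 of Tet2 and Tet2dRBD stood apart from each other and from replicates 3 and 4, which differed least (chi-square per gene of 2.79 to 17.16, against 140.3 to 558.71 for the other pairs of replicates). The study describes its RIP-Seq as done in biological replicates, the labels do not say which libraries came from separate cultures, and p-values measure the spread between these libraries.

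In input, the laminin-111 chains were present at unequal levels. Lamc1, the γ1 chain that most laminins share, was the most abundant laminin transcript, with a mean of 122 TPM over the 10 inputs and a range from 47.5 to 195. Lama1, the α1 chain, had a mean of 38.3 TPM (22.9 to 67.9), and Lamb1, the β1 chain, a mean of 10.6 TPM (5.11 to 23.9). In every input Lamc1 exceeded Lama1 and Lama1 exceeded Lamb1. Other laminin chains were Lama5 (α5, 18.4 TPM), Lamb2 (β2, 5.65 TPM) and Lamb3 (β3, 1.05 TPM).

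Among the collagens, Col18a1, the basement membrane collagen that is cleaved to give endostatin, led with a mean of 146 TPM and a range from 28.7 to 307. Col4a1 (99.4 TPM) and Col4a2 (47.9 TPM), the chains of the type IV network, followed. The fibrillar chains were far lower, at 5.75 TPM for Col1a1, 3.18 TPM for Col1a2, 3.81 TPM for Col5a3 and 2.18 TPM for Col5a1. Col9a2 (4.49 TPM), Col9a3 (2.61 TPM), the membrane-bound Col13a1 (2.27 TPM), Col6a4 (1.26 TPM) and Col6a2 (1.01 TPM) made up the rest. The other 35 genes ranged from 0 to 0.983 TPM, 13 of them under 0.1 TPM, and 21 of the 35 had enough counts to be tested.

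Lamb1 was far above input in every pair of every line, and it was the only one of the 19 expressed chains at least 1.5-fold above input in all pairs of any line. In the Tet1 line its input levels were 9.03 and 7.09 TPM and its IP levels 33.7 and 36.7 TPM. In the Tet2 line the inputs held 8.89, 10.8, 5.11 and 6.22 TPM and the IPs 74.3, 52.9, 28.1 and 28.0 TPM. In the Tet2dRBD line the inputs held 9.9, 8.9, 16.0 and 23.9 TPM and the IPs 98.5, 27.5, 78.3 and 62.3 TPM. In each line the lowest IP lay above the highest input, with only 2 pairs in Tet1. The shares of all expressed genes without such overlap, or at least 1.5-fold above input in all pairs, are not given here.

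**Figure D1:**
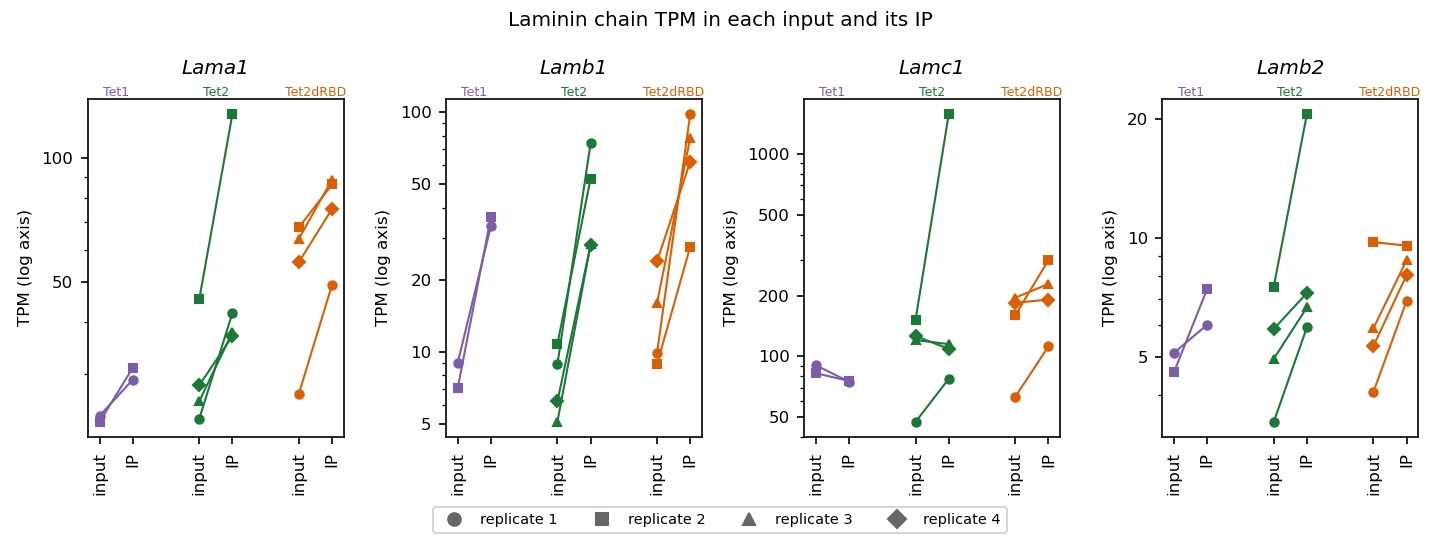
TPM of the laminin-111 chains Lama1, Lamb1 and Lamc1 and of Lamb2 in each input and its IP (log axis), with a line joining the libraries of a pair, colours for the tagged line and symbols for the replicate. All 10 Lamb1 lines rise steeply, while Lamc1 rises steeply only in Tet2 replicate 2, from 152 to 1578 TPM.

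The log2(IP/input) of Lamb1, on the log2(TPM + 1) scale, was 2.01 ± 0.30 in Tet1 (SD, n = 2), 2.34 ± 0.40 in Tet2 (n = 4) and 2.07 ± 0.84 in Tet2dRBD (n = 4). By this mean it ranked 77th in Tet1, 13th in Tet2 and 15th in Tet2dRBD among the 11784 genes with a mean input of at least 1 TPM. A log2 ratio of at least 1 in all 10 pairs, a limit chosen after the values were seen, was reached by 0.0849% of these genes (10 of 11784), Lamb1 among them. In the edgeR quasi-likelihood test across all genes, whose fitted changes are relative to a median near 0, the Lamb1 change was 1.99 ± 0.35 (SE, adjusted p = 0.02) in Tet1, 2.18 ± 0.25 (adjusted p = 0.00026) in Tet2 and 1.87 ± 0.25 (adjusted p = 0.0012) in Tet2dRBD. The Tet2 and Tet2dRBD calls held in all 17 alternatives. The Tet1 call was lost without the pair block (adjusted p = 0.58) and without Tet1 replicate 1 or 2 (adjusted p = 0.29 and 0.57).

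Lama1 was also above input in all 10 pairs, by less. Its log2 ratio was 0.28 and 0.42 in Tet1, 0.83, 1.47, 0.54 and 0.39 in Tet2, and 0.86, 0.34, 0.47 and 0.42 in Tet2dRBD. In Tet2 its IP levels were 42.1, 128, 37.8 and 37.0 TPM against 23.3, 45.4, 25.7 and 28.1 TPM in input. Every pair rose, but the highest input overlapped the lower IPs. The fitted change was 0.51 ± 0.13 (SE) in Tet2 (edgeR adjusted p = 0.013), 0.22 ± 0.18 in Tet1 and 0.26 ± 0.13 in Tet2dRBD, and those in Tet1 and Tet2dRBD did not pass. The Tet2 call was lost in 2 of 17 alternatives, without the pair block (adjusted p = 0.35) and with only the compared line in the fit (adjusted p = 0.052).

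Unlike Lama1 and Lamb1, Lamc1 was not above input in every pair. Its IP and input levels in Tet1 were 75.0 and 75.7 against 90.4 and 82.6 TPM, so both IPs were below input. In Tet2 the IPs held 77.6, 1578, 115 and 109 TPM against 47.5, 152, 120.5 and 126 TPM in input. The second Tet2 IP stood far above every other library, and replicates 3 and 4 lay slightly below input. In Tet2dRBD the IPs held 112, 299, 228 and 191 TPM against 63.1, 159.5, 195 and 184 TPM in input, all 4 above their own input. The fitted change in Tet2 was 0.55 and did not pass (edgeR adjusted p = 0.38), and it turned to -0.11 without Tet2 replicate 2 (adjusted p = 0.7).

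By median, Lamb1 stood higher relative to the other laminin-111 chains in the IPs than in the inputs. The Lamc1 to Lama1 ratio differed less, with medians of 3.32 over the inputs (2.04 to 4.69) and 2.58 over the IPs (1.84 to 12.4). The Lamb1 to Lama1 ratio of TPM had a median of 0.28 over the inputs (0.131 to 0.427) and of 0.855 over the IPs (0.319 to 2.0). The Lamc1 to Lamb1 ratio had a median of 11.9 over the inputs (5.35 to 23.6) and of 2.99 over the IPs (1.04 to 29.9). In Tet1, where the pairs were closest, Lamb1 to Lama1 went from 0.381 and 0.309 in input to 1.16 and 1.18 in the IP. The Lamb1 to Lamb2 ratio, which sets the 2 β chains side by side, had a median of 1.66 in input and 5.26 in the IP. These ratios are descriptions, and no test was run on them.

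The other laminin chains were mostly above input without standing out. Lamb2, a β chain of vascular and synaptic basement membranes, had log2 ratios of 0.65, 1.34, 0.37 and 0.26 in Tet2 and a fitted change of 0.43 ± 0.15 (SE, edgeR adjusted p = 0.047). That call was lost in 12 of 17 alternatives, among them leaving out Tet2 replicate 2, with a change of 0.25 (adjusted p = 0.21). Lamb3, of the epithelial laminin-332, was above input in all 10 pairs, with a fitted change of 0.41 ± 0.16 in Tet2 that did not pass (adjusted p = 0.068). Lama5, the α5 chain, had a Tet2 log2 ratio of 1.26 in replicate 2 and of 0.15 to 0.34 in the others. It was below input in Tet2dRBD replicate 2, at -0.29.

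**Figure D2:**
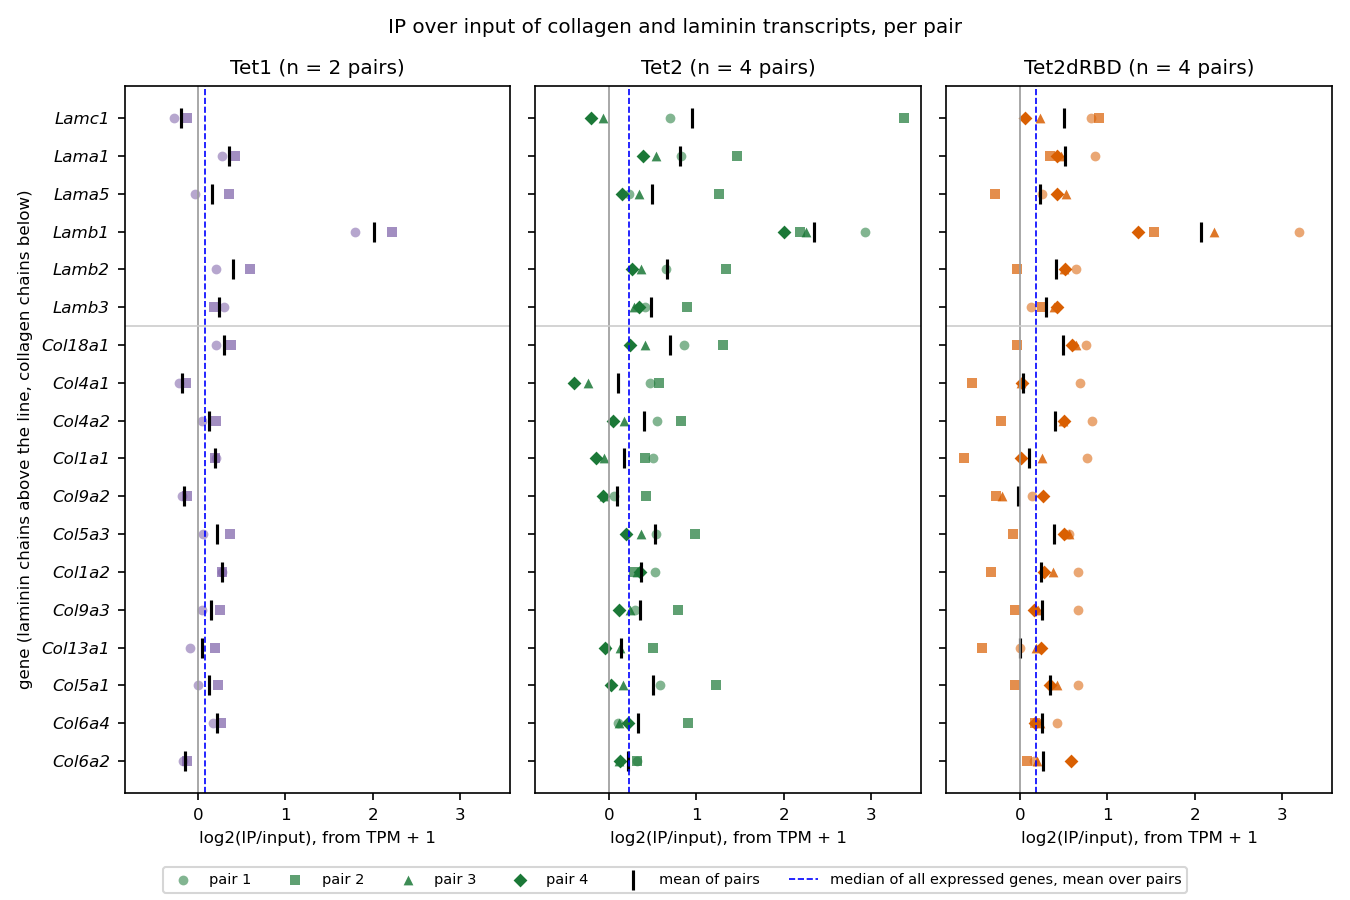
Log2(IP/input) from TPM + 1 of 18 expressed chains (laminins above, collagens below, each by input level) in each pair of the Tet1, Tet2 and Tet2dRBD lines, with the mean over pairs as a black bar and the mean over pairs of the median of all expressed genes as a dashed line. Lamb1 lies apart in all 3 lines, at 2.01, 2.34 and 2.07, and the square for pair 2 is often highest in Tet2 and lowest in Tet2dRBD.

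The type IV collagen chains varied between pairs, and neither was above input in all 10. Col4a1 had log2 ratios of -0.22 and -0.14 in Tet1, 0.47, 0.57, -0.24 and -0.4 in Tet2, and 0.69, -0.55, 0.01 and 0.02 in Tet2dRBD. Col4a2 had 0.05 and 0.21 in Tet1, 0.55, 0.82, 0.17 and 0.05 in Tet2, and 0.83, -0.22, 0.49 and 0.5 in Tet2dRBD. Neither passed in any line. The order of the chains was steady all the same: in each of the 10 pairs Col4a2 had the higher log2 ratio. The Col4a1 to Col4a2 ratio of TPM ran from 1.93 to 2.34 over the inputs and from 1.53 to 1.95 over the IPs, with medians of 2.23 and 1.71.

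Col18a1 had log2 ratios of 0.21 and 0.38 in Tet1, 0.86, 1.3, 0.41 and 0.24 in Tet2, and 0.76, -0.03, 0.64 and 0.6 in Tet2dRBD. Its Tet2 IPs held 52.9, 519.8, 189.8 and 186 TPM against 28.7, 210.4, 142 and 157 TPM in input, so every Tet2 IP was above its own input although the groups overlapped. The fitted Tet2 change of 0.39 ± 0.14 (SE) did not pass by a narrow margin (edgeR adjusted p = 0.05) and passed in 5 of 17 alternatives. Col1a1, of the main fibrillar collagen, was 0.77 in replicate 1 and -0.64 in replicate 2 of Tet2dRBD, and its partner Col1a2 was 0.66 and -0.33 in the same pairs. Col5a1 and Col5a3, of the collagen that nucleates fibrils, had mean log2 ratios of 0.50 ± 0.54 and 0.53 ± 0.34 in Tet2 (SD, n = 4), and neither passed. Col9a2, Col13a1 and Col6a2 had means from -0.16 to 0.26 over the lines, and Col9a3 and Col6a4 from 0.15 to 0.36.

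Counted over the 40 members that could be tested, the edgeR test called 4 higher and 1 lower in the Tet2 IP. The higher ones were Lamb1, Lama1, Lamb2 and the low Col2a1, the cartilage collagen (fitted change 0.57 ± 0.19, adjusted p = 0.036), and the lower one was Col6a1, a microfibrillar chain (-0.59 ± 0.20, adjusted p = 0.043). Over all 13710 genes tested, 14.6% were called higher and 18.5% lower in Tet2. In the Tet1 IP 1 member was called higher (Lamb1), against 2.72% of all genes, and 0 lower, against 3.18%. In the Tet2dRBD IP 1 was called higher (Lamb1), against 7.4% of all genes, and 0 lower, against 12.1%. The count of 4 in Tet2 was thus below the background share, and it ran from 1 to 14 over the alternatives. Col2a1 passed in 8 of 17 alternatives and Col6a1 in 2 of 17.

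The fitted changes of the tested members had a median of 0.05 in Tet1, 0.24 in Tet2 and 0.18 in Tet2dRBD, against -0.04, 0.0 and -0.01 over all genes tested. For the 9 tested laminins the medians were 0.22, 0.43 and 0.26, and for the 31 tested collagens 0.04, 0.12 and 0.09. All 9 laminins had a fitted change above 0 in Tet2, where 50.2% of all genes did, but without Tet2 replicate 2 Lamc1 (-0.11) and Lama5 were no longer above 0. On the TPM scale, the median log2 ratio of all expressed genes was itself above 0, at 0.08 ± 0.05 in Tet1 (SD, n = 2), 0.23 ± 0.11 in Tet2 and 0.18 ± 0.11 in Tet2dRBD (n = 4 each). The medians of the 19 expressed chains were 0.15 ± 0.12, 0.45 ± 0.33 and 0.35 ± 0.29.

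In Tet2, 14 of the 19 expressed chains were above input in all 4 pairs, against 47.0% of the 11784 expressed genes, and 0 were below in all 4, against 13.4%. In Tet2dRBD 7 were above in all 4 pairs, against 31.0%, and 0 below, against 9.57%. In Tet1, with 2 pairs, 12 were above in both, against 50.5%, and 4 were below in both (Lamc1, Col4a1, Col9a2 and Col6a2), against 32.3%. Set against the median of all expressed genes in each pair, the counts above in every pair were 11 in Tet1, 7 in Tet2 and 3 in Tet2dRBD, and the shares of all genes were 42.1%, 27.9% and 18.7%. Of the 19, 5 were above input in all 10 pairs, Lama1, Lamb1, Lamb3 and Col6a4 among them, as were 22.7% of all expressed genes.

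The members are long transcripts, and the log2 ratio rose with length over all expressed genes. The 19 chains had a median length of 5624 bases, against 2598 for all expressed genes. Across 11784 genes, which share libraries and are not independent, Spearman's rho between effective length and mean log2 ratio was 0.2 in Tet1, 0.45 in Tet2 and 0.38 in Tet2dRBD. Above 4000 bases, the 15 members had median log2 ratios of 0.22, 0.5 and 0.39, and the 2843 genes of that length had medians of 0.14, 0.48 and 0.36. Genes of up to 4000 bases had medians of 0.06, 0.17 and 0.15. The members as a list thus lay close to other long transcripts, and Lamb1, at 5778 bases, lay far above its bin, whose medians were 0.13, 0.44 and 0.33. The part of length in the results was not tested.

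**Figure D3:**
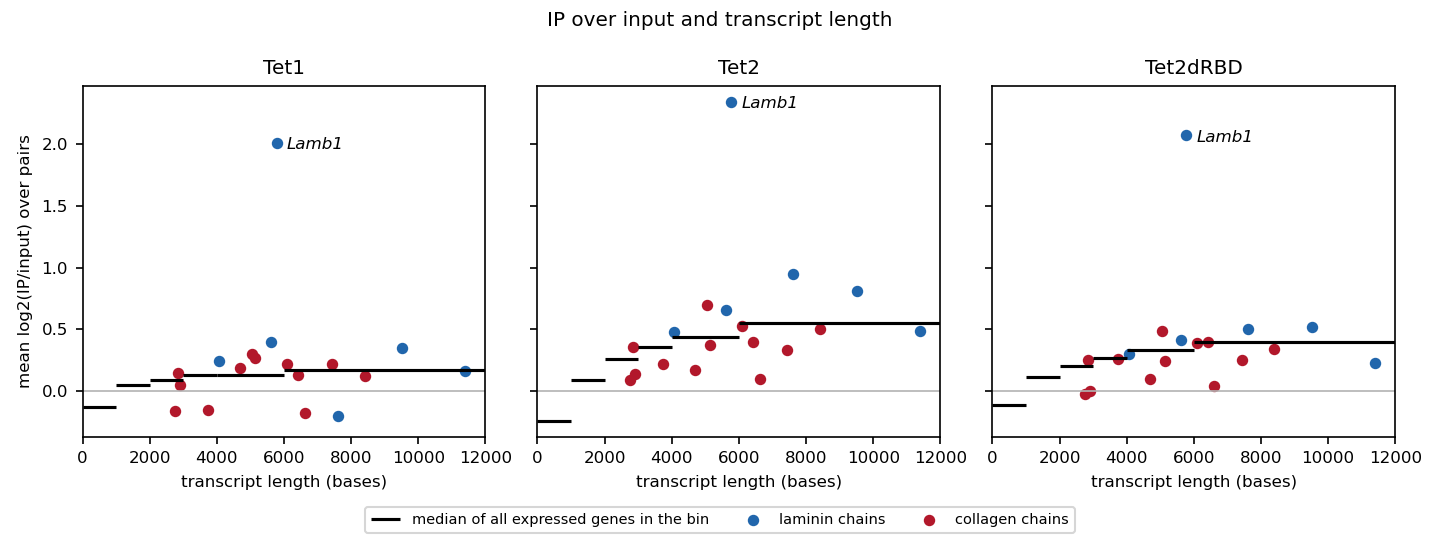
Mean log2(IP/input) over pairs against transcript length in bases for 18 expressed chains (laminins blue, collagens red) in each line, with the median of all expressed genes in each length bin as a black bar. The bars climb from -0.24 to 0.55 in Tet2, and Lamb1 lies far above them in each line.

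Among the 19 chains, coding GC content ran against the log2 ratio, with a Spearman's rho of -0.47 in Tet1, -0.61 in Tet2 and -0.63 in Tet2dRBD (n = 19 genes, a description in which the GC-rich collagens and the less GC-rich laminins are joined). Over 11243 genes rho was -0.15, -0.04 and -0.1. For UC hexamers per kilobase and the log2 ratio, rho over the same genes was 0.06, 0.14 and 0.11.

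Whether the RNA-binding domain changed the pull-down was asked by the difference of the IP effects, Tet2 minus Tet2dRBD. The edgeR test called 0 of the 40 members either way, and 1 (Col11a2, a cartilage collagen chain at a low level) had an unadjusted p under 0.05, as did 3.03% of all genes. Of all genes, 0.0219% (3 of 13710) were called higher and 0.0% lower, and DESeq2 and limma also called 0 members. The fitted difference was 0.31 ± 0.34 (SE) for Lamb1, 0.25 ± 0.18 for Lama1, 0.32 ± 0.62 for Lamc1, 0.17 ± 0.20 for Col18a1 and 0.01 ± 0.23 for Col4a1, each with an edgeR adjusted p = 1.0. A p that misses the threshold does not show that the proteins pulled down these transcripts alike.

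The pairs with the same number, however, differed in a common way. In number 2, the log2 ratio was higher in Tet2 than in Tet2dRBD for 19 of 19 chains, with a median difference of 1.04 and a range from 0.24 to 2.46. In numbers 1, 3 and 4 it was higher for 5, 4 and 3 of the 19, with medians of -0.07, -0.11 and -0.26. Over all expressed genes the shares higher in Tet2 were 42.2%, 69.4%, 32.6% and 37.3% in numbers 1 to 4, and the median differences were -0.06, 0.32, -0.08 and -0.09. For Lama1 the differences were -0.03, 1.13, 0.07 and -0.03, and for Lamb2 they were 0.01, 1.36, -0.13 and -0.26. Lamb1 differed from this pattern, at -0.26, 0.67, 0.03 and 0.66.

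Tet1 against Tet2 was compared in the same fit, and this comparison shares the Tet2 libraries with the one above. It sets 2 Tet1 pairs against 4 Tet2 pairs, of which replicates 1 and 2 stood apart. With only Tet2 replicates 3 and 4 kept, 0 of 13577 genes were called. The test called 0 of 40 members either way, with 0 members at an unadjusted p under 0.05 (3.77% of all genes) and 0 by DESeq2 or limma, and 0.0% of all genes in either direction. The fitted difference, Tet1 minus Tet2, was -0.19 ± 0.42 (SE) for Lamb1, -0.29 ± 0.22 for Lama1 and -0.89 ± 0.75 for Lamc1, where the last rests on Tet2 replicate 2.

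The embryonic basement membrane chains had higher mean input levels in the Tet2dRBD than in the Tet2 line, without passing the test. Col4a1 stood at 62.6, 305, 136 and 127 TPM in the Tet2dRBD inputs and at 58.6, 141, 31.8 and 32.4 TPM in the Tet2 inputs, and Tet1 held 49.1 and 50.2 TPM. Col4a2 stood at 31.8, 158, 60.1 and 57.8 TPM in Tet2dRBD and at 28.2, 73.0, 13.6 and 13.9 TPM in Tet2. In the same replicate numbers Tet2dRBD was higher in 4 of 4 for both, by log2 differences near 2 in numbers 3 and 4 (2.07 and 1.94 for Col4a1) and of 0.1 in number 1. The ranges of the lines overlapped.

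Lama1 was also higher in 4 of 4 Tet2dRBD inputs, at 26.8, 67.9, 63.7 and 55.9 TPM against 23.3, 45.4, 25.7 and 28.1 TPM. Lamb1 was higher in 3 of 4 and Lamc1 in 4 of 4, in number 2 by a log2 difference of only 0.07. Lamb3, Col9a2 and Col5a3 were higher in 0 of 4 Tet2dRBD inputs. The share of all genes higher in 4 of 4 is not given here, and replicates 3 and 4 were the most alike. Over all genes tested, 58.2% had a fitted difference above 0, against 77.5% of the 40 tested members. The fitted differences were 1.28 ± 0.56 (SE) for Col4a1, 0.91 ± 0.36 for Lamb1 and 0.81 ± 0.31 for Lama1, each with an edgeR adjusted p = 1.0. Without Tet2dRBD replicate 2 the Col4a1 difference was 0.74. The test called 0 of 40 members and 0.0% of 13178 genes in either direction, with 4 members at an unadjusted p under 0.05, against 1.88% of all genes. Of these the fitted difference was above 0 for Col4a1, Lama1 and Lamb1 and below 0 for Col6a6, a chain at a low level, at -1.19 ± 0.30 (SE). DESeq2 and limma also called 0 members.

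The summed level of the primitive and parietal endoderm marker list was also higher in 4 of 4 Tet2dRBD inputs by number. Srgn alone held 137 and 149 TPM of the sum in Tet2dRBD replicates 3 and 4. The sum was 255, 186, 239 and 260.3 TPM in the Tet2dRBD inputs, 235, 148, 67.4 and 67.2 TPM in Tet2 and 139 and 130.1 TPM in Tet1. Tet2dRBD replicate 2, with the highest Col4a1, had the lowest sum of its line. In Tet2, replicates 3 and 4 were lowest in both the sum and Col4a1. By number, Gata4, Gata6, Sox17, Sox7, Foxa2 and Dab2 were higher in 4 of 4 Tet2dRBD inputs, with the share of all genes not given here. The Gata4 log2 differences were 0.3, 0.86, 2.37 and 2.22. Pdgfra, Cubn, Plat, Thbd and Srgn were higher in 3 of 4, with Srgn lower in number 1. Amn was higher in 2 of 4, Ttr in 1 of 4 and Hnf4a in 0 of 4, and Afp stayed near 0. The summed fibroblast list was 51.5, 280.4, 219 and 204 TPM in Tet2dRBD and 56.1, 126, 186 and 204 TPM in Tet2. Of the 13 tested markers 0 passed in input. Their part in the result was not tested. In bulk RNA, fewer cells of a type and less RNA per cell cannot be told apart.

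**Figure D4:**
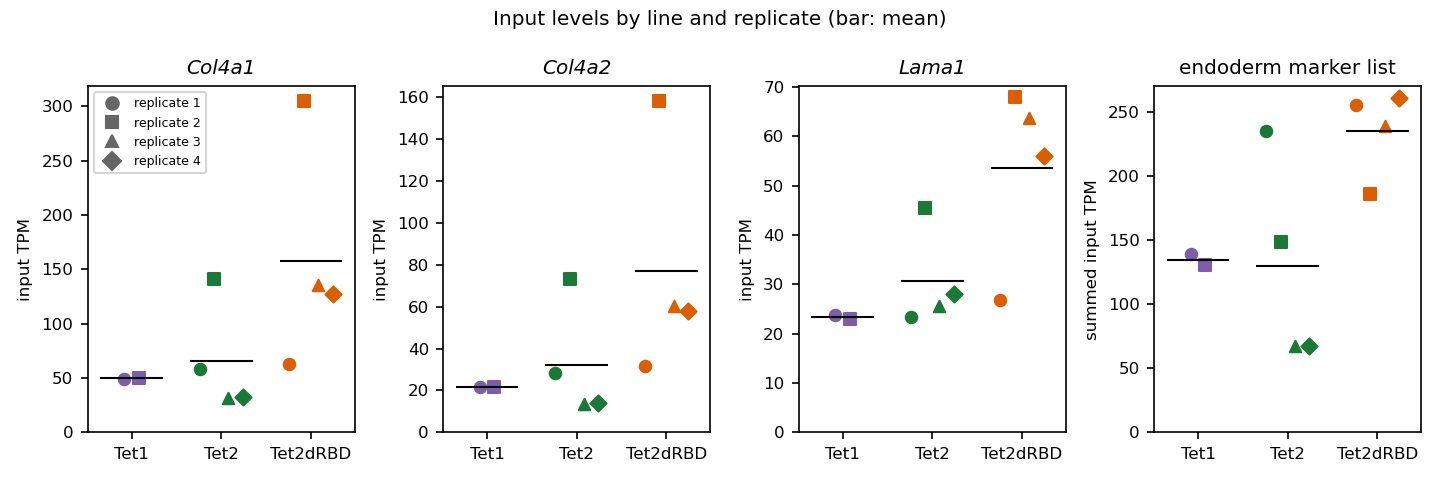
Input TPM of Col4a1, Col4a2 and Lama1 and the summed input TPM of the 15 endoderm markers in each line, with a symbol for each replicate number and a bar at the mean. In replicates 3 and 4 the Tet2dRBD inputs lie far above the Tet2 inputs in all 4 panels, and in replicate 1 the lines lie close together.

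Genes that work with these chains were described from lists of known partners, whose counts stand beside the 14.6% of all genes called higher and 18.5% called lower in Tet2, 2.72% and 3.18% in Tet1, and 7.4% and 12.1% in Tet2dRBD. Of 24 partners in the basement membrane, 19 were tested, and in the Tet2 IP 3 were called higher and 1 lower, with a median of 0.13. The higher ones were Vcan, a large proteoglycan (0.97 ± 0.26, SE), Agrn, the heparan sulfate proteoglycan agrin (0.53 ± 0.12), and Nid2, which links laminin to type IV collagen (0.50 ± 0.12). The lower one was Sparc, a small collagen-binding glycoprotein (-0.88 ± 0.13). Vcan was called higher and Sparc lower in Tet1 and Tet2dRBD too.

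Of 29 genes for folding and modifying collagen, 26 were tested, with 2 called higher and 4 lower in Tet2 and a median of 0.07. The higher ones were the prolyl hydroxylases P4ha2 (0.40 ± 0.11) and Lepre1, now P3h1 (0.43 ± 0.12). Among the lower ones were Loxl2, a lysyl oxidase (-0.79 ± 0.17), Leprel2, now P3h3 (-0.71 ± 0.20), and Ppib, a prolyl isomerase (-0.57 ± 0.11). In the Tet1 IP 0 were called, and in Tet2dRBD 0 higher and 2 lower.

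Of 18 genes for export of large cargo from the ER, 16 were tested, and 2 were called higher and 6 lower in Tet2, 0 and 3 in Tet1, and 1 and 6 in Tet2dRBD. Klhl12, the adaptor that enlarges COPII coats (0.41 ± 0.09), and Sec24c, a coat subunit (0.34 ± 0.11), were higher. Sar1b, the GTPase that starts the coat, was lowest at -1.33 ± 0.14, followed by Tfg at -0.88 ± 0.11 and Sec13 at -0.42 ± 0.10. The 19 signal recognition particle and translocon genes were all tested, with 1 higher (Srp68, 0.53 ± 0.14) and 8 lower in Tet2, the lowest being Sec61g (-1.45 ± 0.24), Ssr3 (-0.99 ± 0.12) and Sec61a2 (-0.78 ± 0.13). Their median was -0.21 in Tet2, -0.28 in Tet1 and -0.23 in Tet2dRBD.

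Of 17 collagen and laminin receptor genes, 15 were tested, with 2 called higher and 1 lower in Tet2 and a median of 0.15. Itga1, the α1 integrin of a collagen receptor, had the largest change and a wide error (2.38 ± 0.79, edgeR adjusted p = 0.04). Itga3, of a laminin receptor, changed by 0.81 ± 0.11 and the syndecan Sdc4 by -0.67 ± 0.15. In the same IP, 4 of 12 ESC markers, 6 of 13 tested endoderm markers and 2 of 7 tested fibroblast markers were called lower, against 18.5% of all genes, and 0, 1 and 0 higher, against 14.6%. Tet2 mRNA was called higher in the Tet2 IP (0.56 ± 0.19, SE), and its changes of 0.57 ± 0.27 in Tet1 and 0.43 ± 0.19 in Tet2dRBD did not pass. Tet1 mRNA changed by a like amount, 0.47 ± 0.28 in Tet1, 0.52 ± 0.20 in Tet2 and 0.76 ± 0.20 in Tet2dRBD. Of these only the Tet2dRBD change passed (edgeR adjusted p = 0.024).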

How the data were processed

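Reads of the 20 libraries had been checked with FastQC, trimmed with Trimmomatic, and quantified by the authors with RSEM on Bowtie2 alignments (build mm9), per the labels. The strand setting was not given in the sources used here. The deposited files give an expected count per gene and TPM + 1, from which 1 was subtracted here to give TPM; transcript length was read from the same files. IP and input were paired by the replicate number in the labels. For each gene, log2(IP/input) was computed on the log2(TPM + 1) scale for each pair, with genes of mean input TPM of at least 1 described singly. Expected counts were rounded and tested with edgeR 4.0.16 (TMM, quasi-likelihood, R 4.3.3), on genes with at least 1 CPM in at least 2 libraries, with a block for each pair and an IP effect per line (7 residual degrees of freedom); Benjamini-Hochberg adjusted p under 0.05 was called. Inputs were compared in a second fit without a block. All lines shared 1 estimate of the spread. DESeq2 1.42.0 and limma 3.58.1 were alternatives, as were other filters, pseudocounts, samples and leaving out each pair. The fit was also run on simulated data that held no differences between pairs, and the outcome is not given here.

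Same-number IP and input deviated together (correlation of at least 0.58 in Tet2 and Tet2dRBD, and 0.18 in Tet1, where 2 pairs give mirror images), and so did Tet2 and Tet2dRBD inputs of 1 number (0.69 to 0.88). Library sets are named in file names only, with replicates 1 and 2 each in a set of their own. The members and the gene lists were chosen with earlier results of these data known. Named were all members of at least 1 TPM (except 1 that is not reported singly here but stays in the counts and medians), low members past the threshold, and up to 3 highest and 3 lowest called genes of each pathway list in the Tet2 IP. PCR reads carry no molecular identifiers.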

Additional observations from a re-analysis of the deposited data

Results flagged for a closer look

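In sets of 4 values, the gap between the highest or lowest library and the next was compared with the range of the set. Over 114 sets (19 chains, Tet2 and Tet2dRBD, and 3 measures), 15 passed Dixon's limit, which chance passes in about 1 of 20. The sets share libraries, and replicate 2 gave 11 of the 15 and replicate 1 gave 4.

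In the Tet2 IP, replicate 2 was highest in TPM for Lamc1 (gap over range 0.98), Lama1 (0.94), Lama5 (0.92), Lamb2 (0.91), Lamb3 (0.88) and Col5a1 (0.85). Lama5 and Col6a4 were also highest there in log2(IP/input), at 0.83 and 0.85 of the range, and Lamb3 in input TPM, at 0.87. In Tet2dRBD, replicate 2 was highest for Lama5 in input TPM (0.85) and lowest for Col5a3 in log2(IP/input) (0.92). Replicate 1 of Tet2dRBD was lowest for Col5a3 (0.87) and highest for Col9a3 (0.87) in IP TPM. Col13a1 in input TPM was lowest in replicate 1 of Tet2 (0.87) and of Tet2dRBD (0.85).

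Where every pair of one line was above input and every pair of another below it, the difference of mean log2(IP/input) was -0.7 for Lamc1 and -0.41 for Col6a2 in Tet1 minus Tet2dRBD, a difference that was not tested, and -0.37 for Col6a2 in Tet1 minus Tet2, where the fitted difference of -0.68 did not pass (edgeR adjusted p = 0.94).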

How the results depend on the processing

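Of the members, 1 was called higher in Tet1, 4 in Tet2 and 1 in Tet2dRBD, and 1 lower in Tet2. Without the replicate block the counts were 0, 1, 1 and 0, and over all genes 0 were called in Tet1, 375 in Tet2 (4540 with the block) and 46 in Tet2dRBD (2674 with it). With only the compared line in the fit, 4 were higher and 2 lower in Tet1 (6985 genes called, against 809), and 1 higher and 0 lower in Tet2, and Tet2dRBD had 748 genes called. Limma on log2(TPM + 1) gave 10 in Tet2 and 4 in Tet2dRBD, and on log2(TPM + 0.1) 14 and 10. Of all 13710 genes, limma called 5894 and 3814 with the first and 5774 and 3749 with the second, in either direction. With replicates 3 and 4 merged, 2 were higher in Tet2, where 3191 of 13610 genes were called in either direction. The 1 lower call was 0 under all these settings, DESeq2 and no filter. Leaving out 1 pair gave 0 to 1 higher in Tet1, 2 to 6 higher and 0 to 1 lower in Tet2, and 1 to 4 higher in Tet2dRBD. Over all genes, leaving out 1 pair gave 2690 to 5376 called in Tet2 and 795 to 3419 in Tet2dRBD, in either direction. Members above input in every pair numbered 12, 14 and 7 in Tet1, Tet2 and Tet2dRBD. At 1.5-fold they numbered 1, 1 and 1, with no share of all genes given, and centred on all genes 11, 7 and 3. The 4 below in Tet1 became 0 at 1.5-fold. Comparing means without the replicate block gave 16 above and 3 below in Tet2dRBD, and leaving out a pair 7 to 17 above, the 17 without replicate 2. The shares of all genes at these settings are not given here. The medians of 0.15, 0.45 and 0.35 stayed within 1 SD, with ranges of 0.06 to 0.23, 0.3 to 0.55 and 0.24 to 0.48 when a pair was left out. In input, the replicate block raised the calls from 0 to 5 genes, with 0 members (Col4a1 adjusted p = 0.19 by edgeR). No call on a single chain changed direction. With 2 Tet1 pairs, leaving out 1 assumes that the other varies like the rest.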
